A study of Caenorhabditis elegans with 3 samples.

Results

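Germ granule components were followed in RNA of mid-L3 hermaphrodites of *Caenorhabditis elegans*, set on each array against a common reference RNA. The set held 10 named genes: the helicase genes *glh-1* to *glh-4*, the scaffold genes *pgl-1* to *pgl-3*, the Piwi gene *prg-1*, and *deps-1* and *cgh-1*. Probes were taken where the platform annotation listed a member as their only gene symbol, which gave 10 probes for 9 of the genes among 20000 probes. *glh-4* had 2 probes and the others 1 each. No probe was listed for *deps-1*, a gene that promotes granule assembly, and it was not analysed here. Of the 9 genes, *glh-1* to *glh-4* and *prg-1* lie on chromosome I, *pgl-2* and *cgh-1* on III, *pgl-1* on IV and *pgl-3* on V.

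There was 1 group of 3 samples, mid-L3 preps 1, 2 and 3, each on its own 2-colour array. The labels give the molecule as total RNA but call the prep and the reference mRNA. Channel 1 carried the same wild-type reference on every array, a mixture whose make-up the labels leave out, and channel 2 carried the mid-L3 prep. The labels give no strain, genotype, temperature or hours of growth for the mid-L3 animals and do not say whether the preps came from separate cultures, so the p-values measure the spread between these 3 preps, which may be technical. Each array also belongs to 1 prep, so array and prep cannot be told apart.

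Germ granules, called P granules in this worm, are RNA and protein assemblies at the outer face of germ cell nuclei. GLH helicases and PGL scaffold proteins hold them together, Argonautes in them read small RNAs against passing transcripts, and they are handed from the oocyte to the germline precursors of the embryo. In the L3 stage the hermaphrodite germline is proliferating and beginning meiosis and holds no mature sperm or oocytes.

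Values are log2 ratios of the 2 channels, each array centred on its median, with the sign as deposited. The numerator is not given in the sources used here. Mid-L3 over reference is the likely reading, from the order in which the labels write the samples, and in that reading a positive value means more RNA in mid-L3. Of 12 measured oocyte and eggshell marker genes, 10 were negative and 0 positive past the threshold, with 12 means below 0 and a median of -2.95. Hypodermal markers had 6 positive and 1 negative of 8 genes and muscle markers 7 positive and 0 negative of 9. Intestinal markers had 6 positive and 1 negative of 10, sperm markers 1 and 4 of 10, and neuronal markers 0 and 1 of 9. Medians were 2.53 for hypodermal, 1.83 for muscle, 1.01 for intestinal, -0.10 for sperm and -0.15 for neuronal markers. From each list the 2 genes with the largest absolute mean were named. The eggshell had *cpg-3* at -4.16 and *perm-2* at -4.05, and sperm *sss-1* at -2.96 and *gsp-3* at -1.62. Muscle had *myo-3* at 3.12 and *unc-52* at 2.99, and the intestine *vit-2* at -5.51 and *cpr-5* at 3.84. The hypodermis had *noah-1* at 3.47 and *lpr-3* at 3.42, and neurons *ric-19* at -0.71 and *unc-13* at -0.43 (which did not pass). The negative hypodermal gene was *col-19* at -2.21 and the positive sperm gene *fog-3* at 0.73, both chosen with their values in view. The positive sperm gene did not pass without prep 2 or 3 or with the arrays scaled to one spread, and the neuronal gene did not without prep 1 or 2. Pearson correlations across all probes were 0.739 between preps 1 and 2, 0.81 between 1 and 3, and 0.76 between 2 and 3. In RNA of whole animals, fewer germ cells and less RNA per germ cell cannot be told apart.

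The germ granule genes fell on both sides of 0. *glh-1*, *glh-2*, *prg-1* and *pgl-1* had positive ratios past the threshold, a Benjamini-Hochberg adjusted p under 0.05 over 19075 features in limma's test of the mean against 0. *pgl-2*, *pgl-3*, *cgh-1* and *glh-3* had negative ratios past it, and *glh-4* did not pass. The 8 genes that passed compare with 27.1% of all features passing in either direction, 13.5% as positive and 13.6% as negative. The genes were picked with earlier results of these data known, so this count is a description. Their means ran from -1.04 to 1.87 with a median of 0.52, against a median of 0.0098 for all features. That median is the value of *glh-4*, which did not pass, and does not stand for a shift of the whole set. All 9 genes kept their sign on all 3 arrays, as 27.2% of all features did with positive and 27.4% with negative values.

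**Figure D1:**
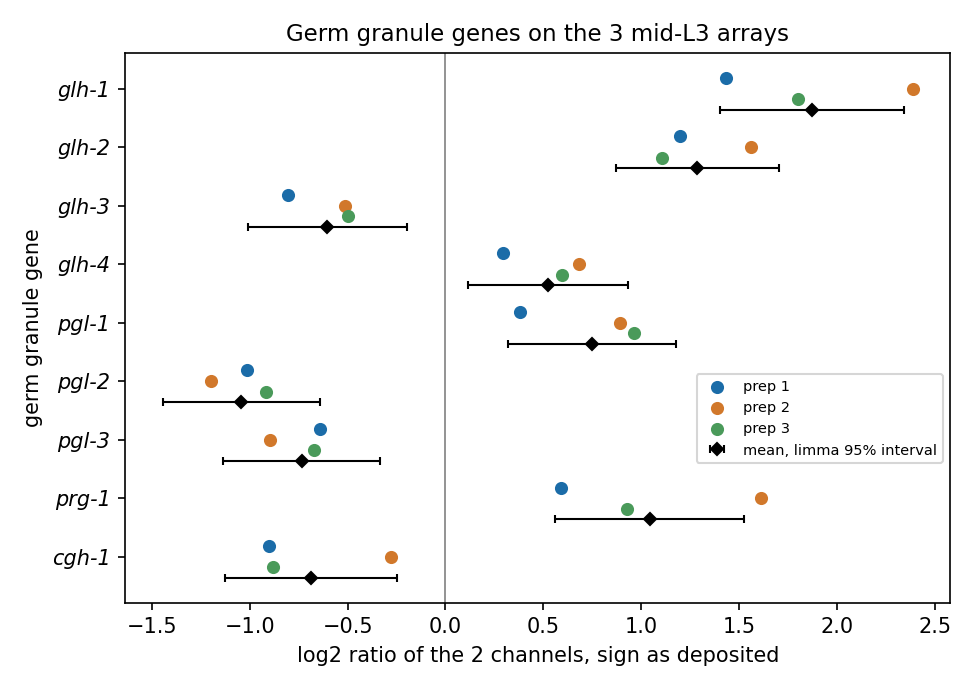
Log2 ratios (horizontal axis, sign as deposited) of the 9 germ granule genes with a probe, with circles for preps 1, 2 and 3 and a diamond with a bar for the mean and its limma 95% interval. No gene has preps on both sides of 0, and the *pgl* genes lie apart, with *pgl-1* above 0 and *pgl-2* and *pgl-3* below.

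**Figure D2:**
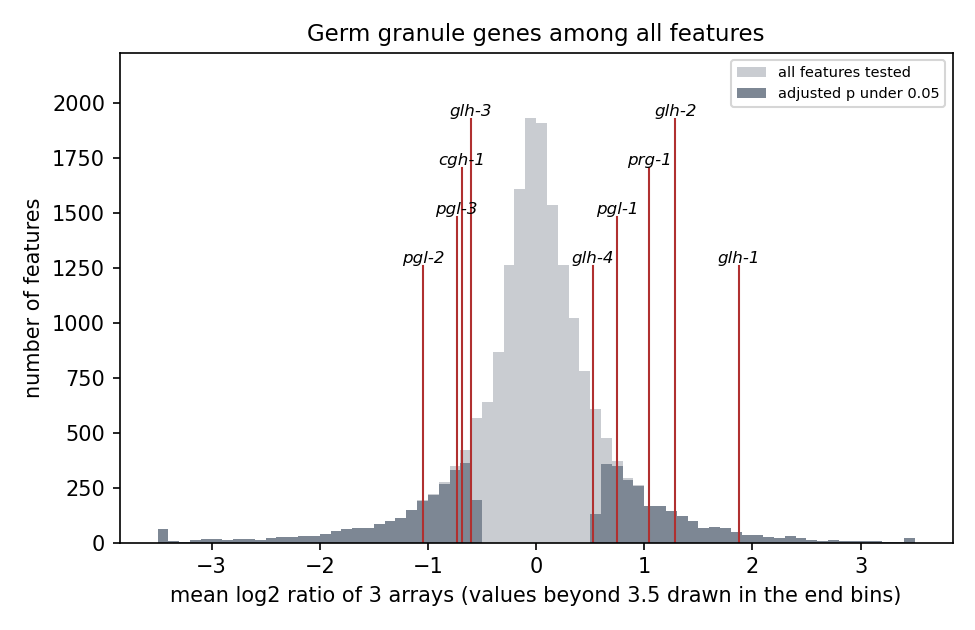
Histogram of the mean log2 ratio of 3 arrays over the 19075 features tested (vertical axis, number of features), with the features past the threshold in dark grey and red lines at the germ granule genes. *glh-1* lies in the upper tail, and the 4 negative genes lie closer to the centre than *glh-1* and *glh-2* do.

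The GLH helicases are relatives of Vasa, the DEAD-box RNA helicase of germ cells in many animals. *glh-1*, the best studied of them and needed for fertility at raised temperature, had log2 ratios of 1.43, 2.39 and 1.80 in preps 1, 2 and 3. Prep 2 was highest and prep 1 lowest, and all lay far above 0. The mean was 1.87 ± 0.48 (SD, n = 3, as for all errors here), a 3.67-fold difference with a 95% interval of 1.40 to 2.35 on the log2 scale (limma adjusted p = 7.04e-05), and stood at percentile 98.7 of all features.

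*glh-2*, its closest relative in sequence, had 1.20, 1.56 and 1.10, with prep 2 again the highest. The mean was 1.29 ± 0.24, a 2.44-fold difference with an interval of 0.87 to 1.70 (limma adjusted p = 0.000402). *glh-1* and *glh-2* overlapped, since prep 2 of *glh-2* exceeded prep 1 of *glh-1*, but within each array *glh-1* was the higher, by 0.23, 0.83 and 0.69. As no probe sequences were used here, signal shared between the spots of related genes was not tested.

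*glh-4*, a larger helicase of the family that acts redundantly with *glh-1*, had 0.30, 0.68 and 0.59 when its 2 probes were averaged. The mean was 0.52 ± 0.20, with an interval of 0.11 to 0.93, and did not pass (limma adjusted p = 0.0589). Its probes differed. One read 0.40, 1.48 and 0.62, a mean of 0.83 ± 0.57, which passed when every probe was tested on its own (limma adjusted p = 0.0162). The other read 0.19, -0.11 and 0.57, a mean of 0.21 ± 0.34, which did not pass (limma adjusted p = 0.499). The probes lay closest in prep 3 and farthest apart in prep 2.

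*glh-3*, whose protein lacks the glycine-rich repeats of the other family members, was the only helicase of this family with a negative ratio. It had -0.80, -0.51 and -0.50, with prep 1 the lowest. The mean was -0.60 ± 0.17, a 1.52-fold difference with an interval of -1.01 to -0.20 (limma adjusted p = 0.0311). This call was lost when any prep was left out, at adjusted p of 0.238, 0.0545 and 0.122 without preps 1, 2 and 3. The means were then -0.50, -0.65 and -0.66, farther from 0 than the main value without prep 2 or 3. All fits without a prep have fewer arrays, so a call lost in them does not by itself show that the ratio depends on that prep. On every array *glh-3* lay below *glh-4*, by 1.10, 1.19 and 1.09, and below *glh-1* and *glh-2*, with no overlap of preps.

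The PGL proteins form the matrix of the granule. PGL-1 and PGL-3 carry RGG boxes, a kind of RNA-binding stretch that PGL-2 lacks. *pgl-1* had 0.38, 0.89 and 0.96, with prep 1 well below the others. The mean was 0.75 ± 0.32, a 1.68-fold difference with an interval of 0.32 to 1.18 (limma adjusted p = 0.0145). It did not pass without prep 2 (mean 0.67, adjusted p = 0.0761) or without prep 3 (mean 0.64, adjusted p = 0.137).

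*pgl-3*, which encodes a PGL protein that can join PGL-1 in the granule and partly stand in for it, went the other way. It had -0.64, -0.90 and -0.67, with prep 2 the lowest. The mean was -0.74 ± 0.14, a 1.67-fold difference with an interval of -1.14 to -0.33 (limma adjusted p = 0.0111), and the call was lost without prep 3 (mean -0.77, adjusted p = 0.0579). *pgl-1* exceeded *pgl-3* by 1.02, 1.79 and 1.63 on the 3 arrays, a mean of 1.48 ± 0.41.

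*pgl-2* had the lowest ratio of the set, at -1.01, -1.20 and -0.92, a narrow spread with prep 2 the lowest. The mean was -1.04 ± 0.14, a 2.06-fold difference with an interval of -1.45 to -0.64 (limma adjusted p = 0.00134). It lay below *pgl-3* on every array, by 0.37, 0.30 and 0.25, and below *pgl-1* by 1.40, 2.09 and 1.88.

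Differences between relatives were computed within arrays for 10 pairs, 6 of *glh* genes, 3 of *pgl* genes and *prg-1* with *prg-2*. With 3 arrays the exact sign-flip permutation test, two-sided, cannot go below 0.25, so no pair could pass. Its value was 0.25 for 9 pairs (0.278 adjusted over the 10) and 0.5 for *prg-1* with *prg-2*. The widest of the 10 gaps was that of *glh-1* over *glh-3*, at 2.24, 2.90 and 2.30.

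*prg-1* encodes the Piwi Argonaute that binds piRNAs in the granule and surveys germline transcripts. It had 0.59, 1.61 and 0.93, the widest spread among the 9 genes, with prep 2 highest and prep 1 lowest. The mean was 1.04 ± 0.52, a 2.06-fold difference with an interval of 0.56 to 1.53 (limma adjusted p = 0.00425), at percentile 94.2 of all features. Its relative *prg-2*, annotated as a pseudogene in RefSeq, had 0.62, 0.38 and 0.62, a mean of 0.54 ± 0.14 (limma adjusted p = 0.0479), a call that did not survive leaving out prep 1 (adjusted p = 0.241) or 3 (adjusted p = 0.285). *prg-1* minus *prg-2* was -0.03, 1.23 and 0.31, so this pair overlapped and changed order in prep 1. The genes are very similar in sequence, and their probes may share targets.

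*cgh-1* encodes a DEAD-box helicase of germ granules and of cytoplasmic mRNA-storage bodies, known to protect maternal mRNAs in oocytes. It had -0.90, -0.28 and -0.88, with prep 2 closest to 0 and the others near each other. The mean was -0.69 ± 0.35, a 1.61-fold difference with an interval of -1.13 to -0.25 (limma adjusted p = 0.0245). It did not pass without prep 1 (mean -0.58, adjusted p = 0.156) or without prep 3 (mean -0.59, adjusted p = 0.182).

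In order of the mean, the genes ran *glh-1*, *glh-2*, *prg-1*, *pgl-1*, *glh-4*, *glh-3*, *cgh-1*, *pgl-3* and *pgl-2*. Neighbours in this order overlapped in their preps except between *glh-4* and *glh-3* and between *pgl-3* and *pgl-2*. The own SDs of the genes ran from 0.14 to 0.52 with a median of 0.24, against a median of 0.29 over all features.

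The preps moved the genes unevenly. Prep 2 gave the highest ratio for 5 of the 9 genes, prep 3 for 3 and prep 1 for 1. Prep 1 gave the lowest for 6, prep 2 for 2 and prep 3 for 1. Among all features prep 2 was the highest for 42.1% and the lowest for 35.1%, and prep 1 was the lowest for 35.0%. The median absolute ratio over all probes was 0.34, 0.46 and 0.31 in preps 1, 2 and 3, the widest in prep 2. Ratios also varied with the place of a probe in the probe order. Over 32 consecutive blocks of equal size, block medians ran from -0.25 to 0.40 in prep 1, from -0.34 to 0.60 in prep 2 and from -0.16 to 0.25 in prep 3. The block of *glh-1* had the median of 0.60 in prep 2, and those of *prg-1*, *pgl-1*, *cgh-1* and *glh-2* had 0.36, 0.34, 0.31 and 0.29 there.

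With each array centred within these blocks, *glh-1* read 1.50, 1.79 and 1.59, a mean of 1.63 ± 0.15 (limma adjusted p = 0.000988), with less spread than before. *prg-1* read 0.72, 1.25 and 0.85, a mean of 0.94 ± 0.28, and *pgl-1* 0.46, 0.55 and 0.72, a mean of 0.58 ± 0.13. *cgh-1* read -0.76, -0.59 and -1.07, a mean of -0.81 ± 0.24. *pgl-2* spread more widely, at -0.89, -1.56 and -1.0. All 9 genes kept their sign on every array, as 28.4% of all features did with positive and 28.7% with negative values under this centring. All 9 then passed the threshold, against 26.5% of all features in either direction, with *glh-4* at 0.51 ± 0.12 (limma adjusted p = 0.037). Prep 2 was the highest for 6 of the 9 under this centring, but the share of all features was not computed for it. For *glh-2* prep 2 read 1.271 against 1.266 in prep 1, and for *glh-3* -0.462 against -0.471 in prep 3, so these were near ties.

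**Figure D3:**
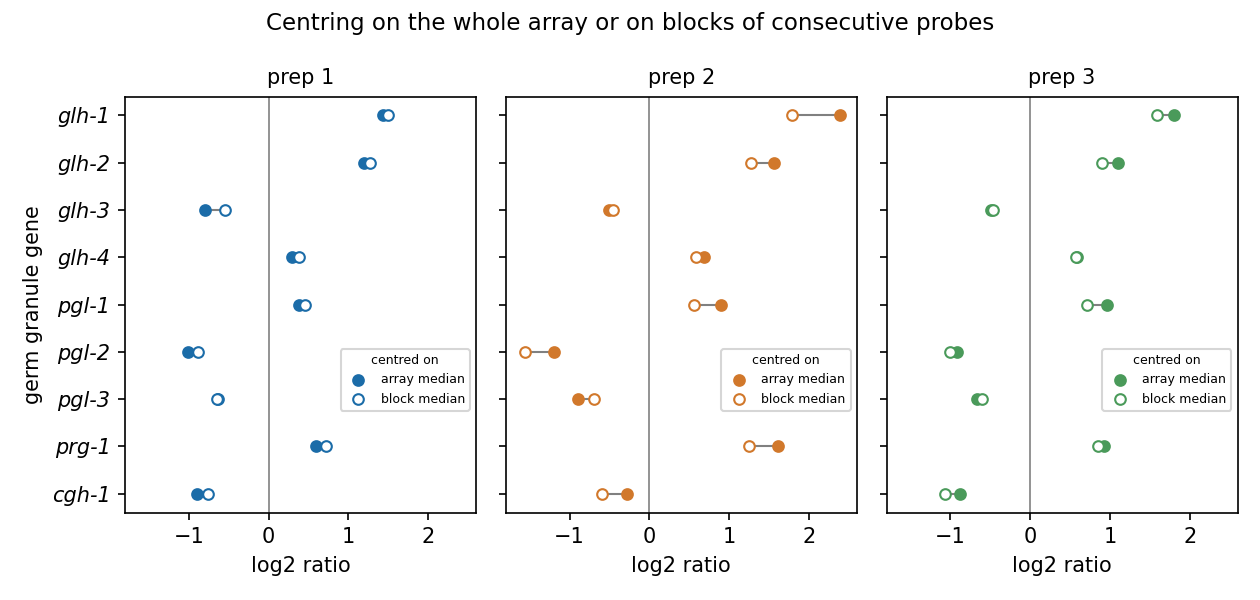
Log2 ratios (horizontal axes) of the germ granule genes in preps 1, 2 and 3, with filled circles centred on the array median and open circles on the median of the probe's block. The longest line is in prep 2, where *glh-1* moves from 2.39 to 1.79, and no gene crosses 0.

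Other genes of the granules and of germline RNA control were followed in 8 lists of 112 genes, of which 89 were measured. Of these, 7 were positive and 40 negative past the threshold, and 42 did not pass, with a median of -0.44. The lists were drawn up with earlier results of these data known, so the counts describe and do not test them. Counts below read against the 13.5% of features positive and 13.6% negative.

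The other P granule genes leaned to negative ratios. Of 13 measured of 17, 0 were positive and 6 negative, with a median of -0.44. Of the 9 germ granule genes, 4 were positive and 4 negative. *lotr-1*, for a LOTUS and Tudor domain protein, was at -1.71, -1.12 and -1.27, a mean of -1.37 ± 0.30 (limma adjusted p = 0.000326). *meg-3*, for a disordered protein that builds granules in the early embryo, was at -1.02 ± 0.29, *wago-1*, for an Argonaute of secondary small RNAs, at -1.01 ± 0.12, and *mip-1*, for a LOTUS domain protein that binds MEG-3, at -0.93 ± 0.26. *mip-2* at -0.88 ± 0.29 and *meg-2* at -0.71 ± 0.60 also passed and were named after their values were seen. The Argonaute gene *csr-1*, with a mean of -0.40 ± 0.12, did not pass, and its name was likewise added with the value in view.

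Of the 4 genes for proteins that bind or regulate GLH proteins, 2 were positive and 0 negative. *zyx-1*, for zyxin, was at 0.98, 1.00 and 0.90, a mean of 0.96 ± 0.05 (limma adjusted p = 0.00204). *pan-1*, for a leucine-rich repeat protein, was at 0.53, 0.53 and 1.40, a mean of 0.82 ± 0.50, and it did not pass without prep 3 (adjusted p = 0.243). Both genes also act in somatic tissues, in which zyxin is a muscle attachment protein.

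The list of the piRNA pathway and associated proteins had 13 measured genes of 16, with 1 positive, *prg-2*, and 4 negative. Its median was -0.39, on the other side of 0 from *prg-1*. *hrde-1*, for a nuclear Argonaute that acts downstream of PRG-1, was at -1.90, -1.15 and -1.76, a mean of -1.61 ± 0.40 (limma adjusted p = 0.000152). *tost-1* was at -1.32 ± 0.64, *henn-1*, for the methyltransferase of piRNA ends, at -0.91 ± 0.19, and *tofu-5*, a piRNA biogenesis gene, at -0.76 ± 0.26. *tofu-5* did not pass without prep 1 (adjusted p = 0.125).

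The list of neighbouring granules, among them the Z granules and mutator foci that sit beside P granules, had 11 measured genes of 17. Of these, 1 was positive and 3 negative, with a median of -0.03. *mut-7*, for an exonuclease, was at 0.71 ± 0.33, lost without prep 2 (adjusted p = 0.0795) or prep 3 (adjusted p = 0.216). *rde-8*, for an endonuclease, was at -0.88 ± 0.46 (lost without prep 1, adjusted p = 0.0969), and *smut-1*, for a helicase, at -0.72 ± 0.13 (lost without prep 3, adjusted p = 0.0956). *simr-1* was at -0.60 ± 0.21 and failed the test with prep 1 left out (adjusted p = 0.268), with prep 3 left out (0.143) and with block centring (0.0554). The list's positive genes numbered 2, 0 and 0 and its negative genes 1, 3 and 1 without preps 1, 2 and 3.

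The partners of CGH-1 and mRNA decay factors held the lowest single values of these 8 lists. Of 13 measured of 16, 2 were positive and 5 negative, with a median of -0.19. *puf-5*, for a Pumilio-family repressor of oocytes, was at -3.95, -2.75 and -4.38, a mean of -3.69 ± 0.85, and *cey-2* and *cey-3*, for Y-box proteins of the germline, at -3.32 ± 0.08 and -2.85 ± 0.24, so all 3 lay below *cgh-1* on every array. *ifet-1*, for a translational repressor, was at -1.04 ± 0.31, and *car-1*, for the CGH-1 partner CAR-1, at -0.44 ± 0.33, which did not pass (limma adjusted p = 0.128). *tsn-1*, for a Tudor nuclease, was positive at 1.90 ± 0.75. *cey-1* was positive at 0.59 ± 0.15 and failed the test with prep 1 left out (adjusted p = 0.228), with prep 3 left out (0.187) and with block centring (0.146).

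RNA-binding proteins of the oocyte and early embryo that are seen on embryonic P granules were negative throughout, 8 of 8 measured, with a median of -2.28, a 4.85-fold difference. *pos-1*, a zinc finger gene of embryonic cell fate, was at -2.54, -2.97 and -3.18, a mean of -2.90 ± 0.32 (limma adjusted p = 1.83e-06). *oma-2* and *oma-1*, of oocyte maturation, were at -2.72 ± 0.44 and -2.39 ± 0.43, and *spn-4* at -2.65 ± 0.47. The mean of the lowest germ granule gene, *pgl-2*, lay above the highest mean of this list, that of *mex-3* at -1.46 ± 0.46 (chosen with its value in view). On single arrays *pgl-2* was the higher in preps 1 and 3 but not in prep 2, where it was at -1.20 and *mex-3* at -1.14.

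The list of genes that control germline proliferation or meiotic entry had 1 positive and 2 negative of 10 measured of 12. These genes act in opposite directions, and the median was -0.17. *fbf-2*, for a Pumilio-family protein that keeps germline stem cells, was positive at 0.73, 1.55 and 0.94, a mean of 1.07 ± 0.43 (limma adjusted p = 0.00256), with prep 2 the highest, as for *prg-1*. *gld-1* and *gld-3*, which promote meiotic entry, were at -1.43 ± 0.77 and -1.26 ± 0.23. Meiotic prophase genes had 0 positive and 12 negative of 18 measured of 23, with a median of -1.15, among them *lab-1* at -2.24 ± 0.37, *syp-3* at -1.84 ± 0.57, *htp-1* at -1.37 ± 0.17 and *zim-2* at -1.32 ± 0.24.

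**Figure D4:**
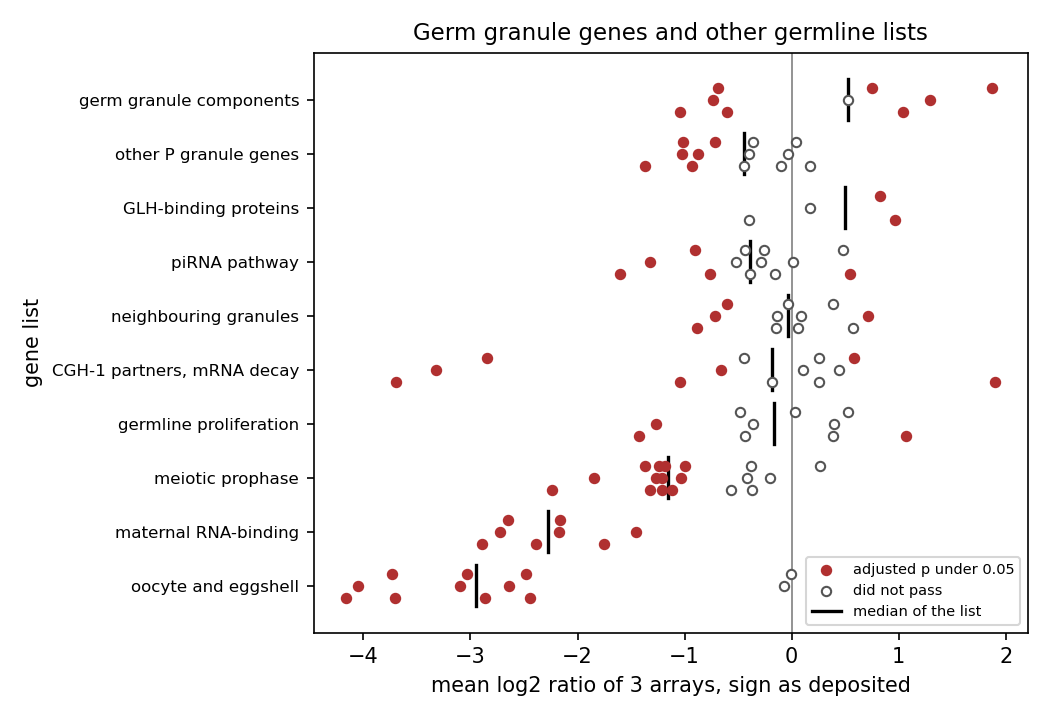
Mean log2 ratio of 3 arrays (horizontal axis, sign as deposited) of each measured gene of the germ granule set and of 9 further lists, with filled points for genes past the threshold, open points for the others and a black line at the median. The germ granule set has points on both sides of 0, while the maternal RNA-binding and oocyte lists have means below 0 only.

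The named genes nearest to *glh-1* over the 3 log2 ratios, by Euclidean distance, were *acox-1.5* at a distance of 0.070, *haao-1* at 0.12 and *pqn-74* at 0.16, and 58 genes lay within 0.5. Those nearest to *pgl-1* were *cutl-14* at 0.039, *pab-1* at 0.069 and *nol-10* at 0.088, with 406 genes within 0.5. With 3 arrays such nearness describes similar values only.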

How the data were processed

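Log2 ratios were deposited by the authors, 1 per probe and array. The scanner, the dyes, the background correction and the normalization behind them are not given. The log2 scale was inferred, since raising 2 to each value gave a multiple of 0.001 (tolerance 0.001 of a thousandth) for 97.9%, 97.0% and 98.3% of values. Deposited medians were 0.027, -0.066 and 0.033, near 0. Whether the authors centred the arrays is not known. Values were missing at 372, 126 and 137 probes. Precision is limited by the number of arrays. No intensities were used.

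Each array was centred on its median over all probes with a value. Of 20000 probes, 15655 had 1 symbol in the platform annotation, 198 several and 4147 none listed. Symbols were updated by Entrez identifier with the RefSeq gene table of WBcel235 (15569 matched). Probes complete on all 3 arrays (19512) were averaged per gene. The 19075 features went into a test of the mean against 0 (limma 3.58.1, R 4.3.3, intercept only, eBayes, 9.23 prior and 2 residual degrees of freedom, two-sided, Benjamini-Hochberg). The reference's spread is left out. Members and lists were chosen with earlier results of these data known. Beyond the members, the rule named up to 4 genes past the threshold per direction and list, up to 2 per marker list, *prg-2* and *car-1*, and 3 nearest genes for *glh-1* and *pgl-1*. Any other gene is marked in the text as chosen with its value in view. Tested on simulated data for this comparison (19075 features), the fit found 100 of 100 features shifted by 2 and 92 of 100 shifted by 1 on the log2 scale, while 17 of its 209 calls were false. The simulation shifted far fewer features than the 27.1% that passed in the data, so its share of false calls does not carry over. Alternatives were other centrings and scalings, block centring, missing values, single probes, array weights, robust moderation, a 2-fold minimum, named genes only and leaving out each prep. Plots used Python 3.11.15 and matplotlib 3.10.9.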

Additional observations from a re-analysis of the deposited data

How the results depend on the processing

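All 9 germ granule genes kept the sign of their mean under the 15 alternatives. *glh-1*, *glh-2*, *prg-1* and *pgl-2* also kept their side of the threshold under all 15. With each prep left out in turn, 3 to 4 germ granule genes were positive and 1 to 3 negative past the threshold, and over all features 1785 to 2229 were positive and 1825 to 2190 negative. These fits have fewer arrays. With a 2-fold minimum, 3 germ granule genes were positive and 1 negative, and over all features 1190 were positive and 1232 negative, since that setting drops smaller ratios by construction. *glh-4* passed with quantile normalization (adjusted p = 0.0372), block centring (0.037) and array weights (0.0274). With every probe on its own, 1 of its 2 probes passed (0.0162) and the other did not (0.499). Adjusted p over the alternatives ran from 0.0133 to 0.238 for *glh-3*, 0.0162 to 0.499 for *glh-4* (both probes counted), 0.00391 to 0.137 for *pgl-1*, 0.00469 to 0.0579 for *pgl-3* and 0.00241 to 0.182 for *cgh-1*. Of the other lists' counts, 385 of 420 recomputed values stayed within 1.5 times. The list for germline proliferation or meiotic entry had 2 positive genes in place of 1 under 7 alternatives. No paired analysis was possible because there is 1 group. Without intensities, signal over background is unknown for every spot.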
